A study of Arabidopsis thaliana with 16 samples.

Results

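Among the Arabidopsis thaliana probes that name a single gene, 36 gave a bright signal in wild type and a small mean difference between the gun1-1 mutant and wild type, and these 36 genes are described here. They were chosen by measured values: a mean deposited intensity of 0.8 or more over the 8 WT samples, and an absolute mean difference, gun1 minus WT, under 0.4 on the log2 scale after quantile normalisation. The table held 3439 probes, of which 692 named 1 gene, and 67 of those 692 reached the level in WT. Of the 67, 24 differed by 0.4 or more, and 7 were left out by name (PSBW, LHB1B2, PSAN, AT1G74470, PSBY, PRK and AT3G54210). RNA from 16 samples was measured, 8 labelled WT, of the ecotype Columbia 0, and 8 labelled gun1, the gun1-1 mutant in the same ecotype, each numbered 1 to 8. The labels do not give the tissue, age or growth conditions, or say that samples are separate plants. The p-values below therefore speak of the spread of these 16 samples, and that spread could be technical.

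GUN1 is a plastid protein with pentatricopeptide repeats that takes part in retrograde signalling, by which plastids report their state to the nucleus. Mutants of this pathway are known for keeping nuclear photosynthesis genes active when plastids are damaged. The brightness of a probe depends on its own sequence and length as well as on the transcript, so the levels of different genes are not set against each other here. The deposited intensities run from 0 to 100 and have no stated unit.

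Values of the whole series bear on these genes in 3 ways. Deposited medians lay between 0.130 and 0.157 in the WT samples and between 0.216 and 0.259 in the gun1 samples, so a choice of scaling decides how genotypes compare. Samples with the same number deviated together from the means of their genotypes, with r across probes between 0.143 and 0.421 for the 8 numbers. None of the 36 genes had a sample at the lowest value kept, 0.0313. The highest value of any of them was 33.5 after normalisation and 37.2 as deposited, so none reached either end of the scale. Whether background limited the lower values could not be judged. Of 36 marker names of seed, root, pollen, leaf mesophyll and guard cells that were looked up, 0 had a probe naming that gene alone. These names therefore could not be used to check the tissue.

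**Figure D1:**
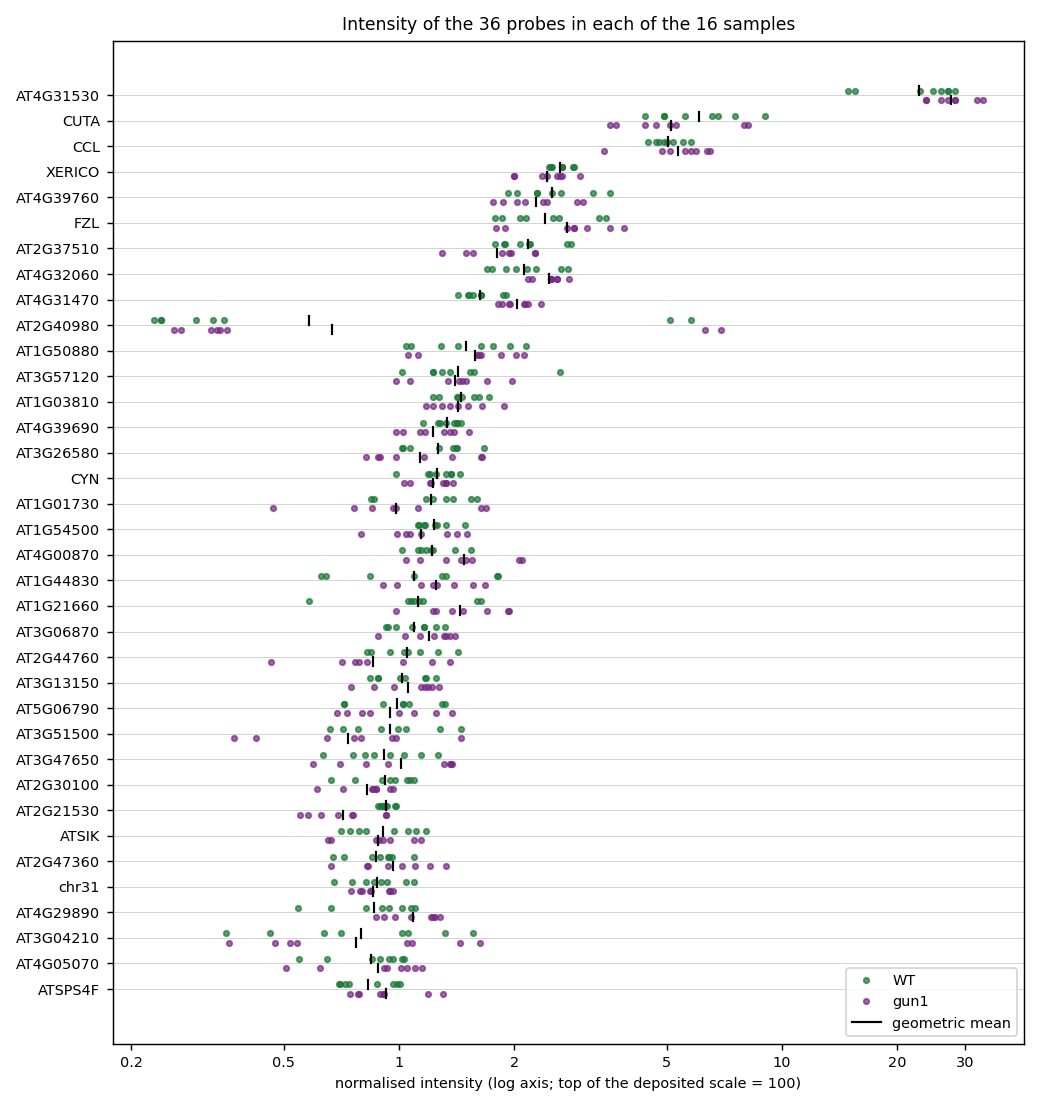
Normalised intensity of the 36 genes (log axis, top of the deposited scale 100), 1 point for each of 8 WT and 8 gun1 samples and a bar at the geometric mean of each genotype. The genotypes overlap for every gene, and AT2G40980 falls into a low cloud of 12 samples and a high cloud of 4.

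The differences between genotypes are given as a description, because they chose the genes. They ran from -0.37 for AT2G21530 to 0.37 for AT1G21660 with a median of -0.03, beside a median of -0.05 over all 3419 probes tested. gun1 was the higher genotype for 17 genes and the lower for 19. The difference was under 0.1 for 11 genes, under 0.2 for 23 and under 0.3 for 30. Such small differences were common: 68.5% of the 426 bright probes of any annotation that were tested, and 45.5% of all probes tested, lay under 0.4.

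The standard error of the difference ran from 0.11 to 0.92, with a median of 0.16, when samples were not paired by number, and the SEs given below are of this kind. The 95% interval lay wholly inside the limit of 0.4 for 8 genes and inside 1, a 2-fold change, for 35. With the number as a replicate block, the SE ran from 0.10 to 0.18 with a median of 0.13, and the interval lay inside 0.4 for 15 genes and inside 1 for all 36. Intervals with and without the block count consecutive numbers as separate, although these often lay close together, so they may be too narrow. AT2G40980 had an interval from -1.75 to 2.15 without the block and from -0.11 to 0.51 with it, and AT3G04210 had an SE of 0.37 without it and 0.13 with it. For the other 21 genes the blocked interval reached beyond the limit of the rule on 1 side, so their small mean does not show that the transcript was equal in both genotypes. At a limma adjusted p under 0.05, referred to below as called, 2 of the 36 passed, AT4G31470 and AT2G21530, against 31.8% of all probes. The rule used this contrast, so nothing is read from that count. Neither was called with consecutive numbers averaged (0 of 36, beside 592 of 3419 probes). The same held with them as a random block (0 of 36, beside 733 of 3419 probes). With a common median, 30 of the 36 were called, all lower in gun1, beside 1551 of 3422 probes. These counts rest on the same contrast, so nothing is read from them either. The ranges of the 8 WT and 8 gun1 samples overlapped for all 36, where 8.13% of all probes tested had ranges apart. After normalisation the direction was the same in all 8 numbers for 2 genes, AT4G31530 and AT4G31470, against 24.9% of all probes. The counts of overlap and of direction are constrained by the rule as well, so nothing is read from them.

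The genes nearest the limits of the rule were as follows. Just above the level limit lay ATSPS4F, with a mean deposited intensity in WT of 0.827, AT4G05070 with 0.850, AT3G04210 with 0.867 and AT4G29890 with 0.871. Just below it lay AT4G09620 with 0.762, AT5G17630 with 0.737, AT1G50390 with 0.731 and AT1G50770 with 0.729. The differences nearest inside the other limit were 0.34 for AT4G29890, -0.36 for AT3G51500, -0.37 for AT2G21530 and 0.37 for AT1G21660. The nearest outside were -0.43 for AT1G62250, 0.45 for AT3G26630, -0.46 for AT4G27390 and 0.46 for AT1G13990.

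A small difference held only for some ways of scaling the samples. With the deposited values unscaled, 35 of the 36 stayed under 0.4, and the median difference of the 36 was 0.01 where that of all probes was 0.41. With cyclic loess, 34 stayed under the limit, with a median of 0.04 beside -0.06 for all probes. With every sample scaled to a common median, 3 stayed under it: AT2G40980 (-0.14), AT1G21660 (-0.37) and AT4G29890 (-0.38). All 36 were then lower in gun1, by values from -1.11 for CUTA to -0.14 for AT2G40980, with a median of -0.72 beside -0.18 for all probes. Relative to the median of all probes, 35 of the 36 lay within 0.4 under quantile normalisation, 32 under cyclic loess, 18 unscaled and 10 with a common median. The table holds no reference that would say which scaling returns the amounts of RNA, so these genes are bright probes whose difference was small under quantile normalisation, and not transcripts shown to be unchanged.

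**Figure D2:**
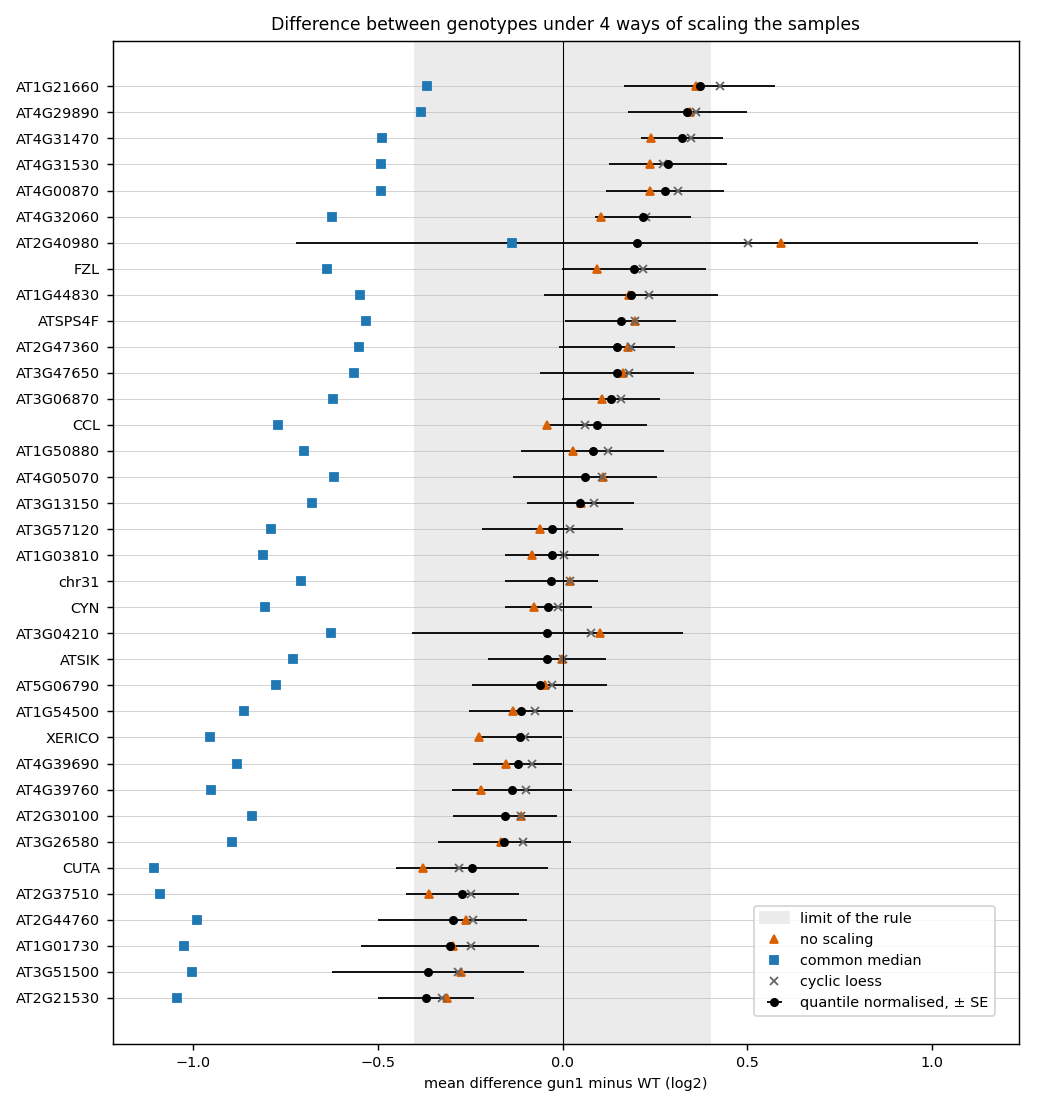
Mean difference gun1 minus WT (log2) of the 36 genes under quantile normalisation (black, ± SE), no scaling, cyclic loess and a common median, with the limit of 0.4 shaded. The squares of the common median lie left of 0 for all 36, from -1.11 to -0.14, while the other 3 scalings stay near the shaded band.

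The sample numbers give a comparison that is separate from gun1 minus WT, since each number occurs in both genotypes. What a number stands for is not in the labels. A difference among numbers was fitted for every probe with limma's moderated F test beside genotype. The level limit of the rule is not independent of it, because a gene that is high in a few WT numbers can pass on those alone. Of the 36 genes, 3 had a mean deposited intensity in WT under 0.8 over the numbers 1 to 6, AT2G40980, AT3G04210 and ATSPS4F. Of the 36, 2 were called among numbers, AT2G40980 and AT3G04210, beside 1.9% of the 3419 probes and 2.11% of the 426 bright probes. Both are among those 3, so their calls are given as a description and support nothing. Of the other 33 genes, limma called 0, beside 1.2% of 415 bright probes also at the limit in WT numbers 1 to 6. At an unadjusted limma p under 0.05 were 9 of the 33 (27.3%), beside 13.7% of those 415 and 18.2% of all probes. Whether these shares differ was not tested. A missed call does not show that the numbers were alike.

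AT2G40980 had the highest F of the 36. In WT its normalised intensity was 0.230, 0.240, 0.350, 0.240, 0.328 and 0.296 in the numbers 1 to 6, and 5.79 and 5.09 in the numbers 7 and 8. In gun1 it was 0.342, 0.323, 0.336, 0.356, 0.260 and 0.270 in the numbers 1 to 6, and 6.94 and 6.29 in the numbers 7 and 8. The 4 high samples are the numbers 7 and 8 of both genotypes, and no sample lies between 0.356 and 5.09.

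The numbers 7 and 8 of AT2G40980 were thus 19.6-fold above the others in WT and 21.2-fold in gun1. The level limit used WT alone, but the difference limit used both genotypes, so the rise in gun1 was not free of the rule. The mean of 1.57 ± 2.40 in WT (SD, n = 8) describes no single sample. Over the numbers 1 to 6 the mean deposited intensity was 0.221 in WT, below the level limit of 0.8, so the gene entered the set through the numbers 7 and 8 alone. A level 16-fold or more higher in the numbers 7 and 8 of both genotypes was seen in 7 of 3419 probes, 2 of them among the 426 bright ones. What sets the numbers 7 and 8 apart was not tested.

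AT3G04210, of the family of TIR and nucleotide-binding proteins known from disease resistance, varied in steps. In WT it stood at 1.06 and 1.02 in the numbers 1 and 2, at 0.354 and 0.461 in 3 and 4, at 0.708 and 0.639 in 5 and 6, and at 1.32 and 1.56 in 7 and 8. In gun1 the same steps read 1.05 and 1.09, then 0.476 and 0.361, then 0.543 and 0.518, then 1.44 and 1.63. Consecutive numbers lay close together in both genotypes, the numbers 3 and 4 were the lowest and the numbers 7 and 8 the highest.

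The numbers 7 and 8 of AT3G04210 were 2.19-fold above the others in WT and 2.48-fold in gun1, while the difference between genotypes was -0.04 (SE 0.37). Its mean deposited intensity in WT over the numbers 1 to 6 was 0.663, so it too passed the level limit through the numbers 7 and 8. ATSPS4F stood at 0.788 in the numbers 1 to 6, just below the limit.

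**Figure D3:**
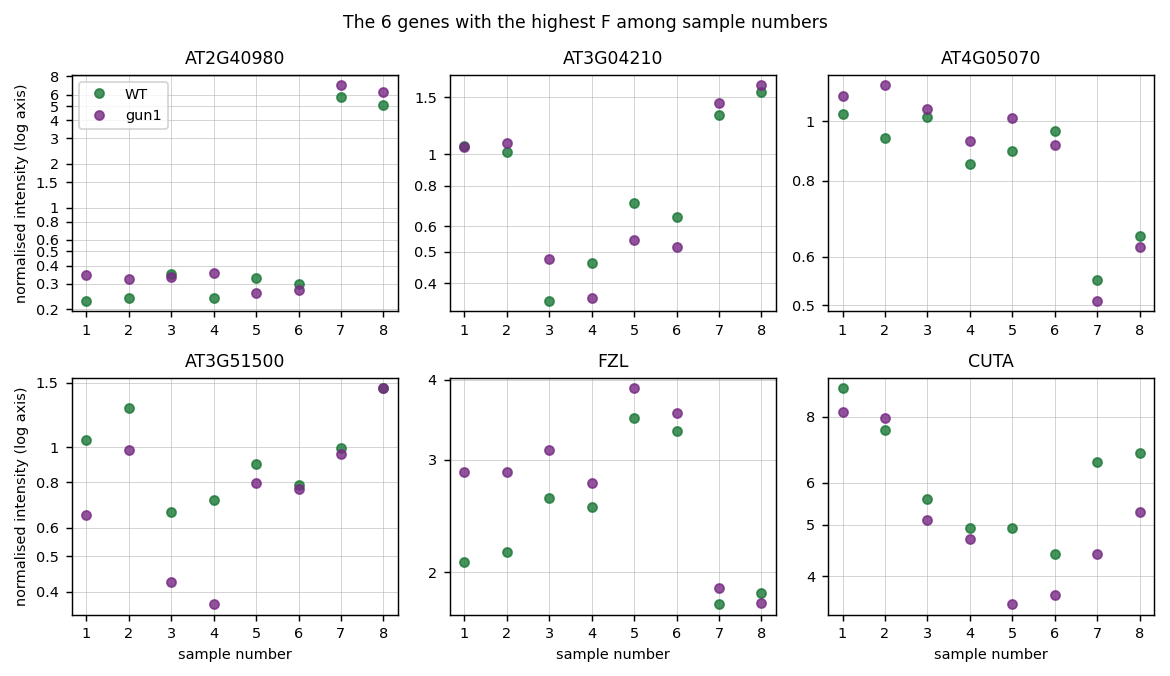
Normalised intensity (log axis, each panel with its own range) against sample number for the 6 genes with the highest F, green for WT and purple for gun1. In AT2G40980 the 4 samples of the numbers 7 and 8 lie between 5.09 and 6.94 and the other 12 between 0.230 and 0.356.

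The consecutive numbers 1 and 2, 3 and 4, 5 and 6, and 7 and 8 often lay close together. With these joined into 4 levels, an alternative that counts both samples of a pair as separate, 17 of the 36 were called (47.2%), against 11.5% of all probes and 23.2% of bright probes. Over genes at the level limit in the WT numbers 1 to 6 as well, a restriction added after the data were seen, 14 of 33 were called (42.4%), against 22.2% of the 415 such bright probes. With consecutive numbers averaged first, limma called 1 of the 36, AT2G40980, beside 17 of the 3419 probes (0.497%). That gene had passed the level limit through the numbers 7 and 8. In this setting 12 of the 36 had an unadjusted limma p under 0.05. No share of all probes was computed for that count, so nothing is read from it. Of the squared deviation from the genotype means, differences among the 4 pairs of numbers that both genotypes shared made up 63.5% in the median gene, against 60.8% for bright probes and 35.8% for all probes. Differences within a pair made up 15.4%, against 15.9% and 39.1%. The share was thus close to that of bright probes in general. It ran from 22.8% for CYN to 99.2% for AT2G40980.

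The numbers 7 and 8 stood apart from all other samples in 6 of the 36 genes, against 2.92% of all probes and 7.51% of bright probes. Of these 6, AT2G40980 and AT3G04210 had passed the level limit through those numbers, and over genes at the limit in the numbers 1 to 6 as well the count was 4 of 33 (12.1%), against 6.75% of such bright probes. Above the others lay AT2G40980, AT3G04210 and AT4G39760, a gene of the kelch repeat family, which ranged from 2.91 to 3.55 in the numbers 7 and 8 and from 1.76 to 2.65 in the rest. Below the others lay FZL, AT1G50880 and AT4G05070. FZL, a dynamin-like GTPase that shapes thylakoid membranes, ranged from 1.79 to 1.89 in the numbers 7 and 8 and from 2.07 to 3.88 in the rest, with its highest values in the numbers 5 and 6. AT4G05070, of a family named for wound response, ranged from 0.509 to 0.649 in the numbers 7 and 8 and from 0.853 to 1.15 in the rest. AT1G50880 ranged from 1.04 to 1.12 in them and from 1.29 to 2.15 in the rest. The numbers 7 and 8 were singled out after the data were seen, and these ranges carry no test.

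**Figure D4:**
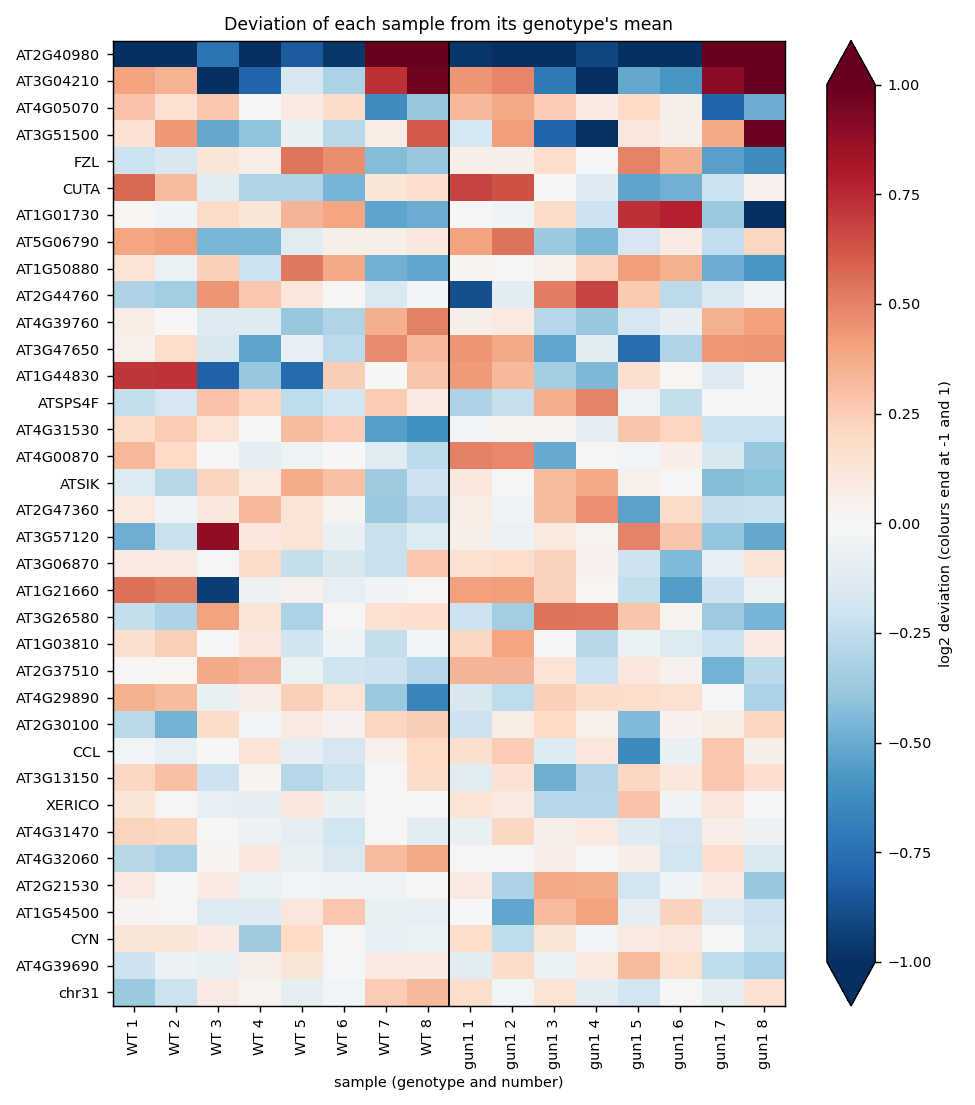
Deviation of each sample from the mean of its genotype (log2, colours end at -1 and 1) for the 36 genes, ordered by F among numbers from top to bottom, with the 8 WT samples left and the 8 gun1 samples right of the line. The upper rows show the same colours left and right, number by number, and the lower rows, from XERICO to chr31, are pale in nearly all samples.

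The deviations of some genes ran together and of others against each other. Over the 16 samples, which share numbers and so are not independent, FZL correlated with AT1G50880 (r = 0.917) and with AT1G01730 (r = 0.906), and AT4G39760 with AT3G04210 (r = 0.857). Opposed were AT2G40980 and AT4G05070 (r = -0.934), AT4G39760 and ATSIK (r = -0.898) and AT4G39760 and AT1G50880 (r = -0.869). Of the 630 pairs of genes, 12 had r above 0.8 and 11 below -0.8, and the median was 0.01. The genes therefore did not share 1 pattern: some were high where others were low. How many pairs of other bright probes reach such r was not counted.

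Roles were given to 24 of the genes after their names and values had been seen, and the groups carry no test. Of 17 lists of genes by role searched by symbol and synonym, 10 had a probe naming 1 of their genes and 0 had a gene among the 36. The search missed genes whose symbols and synonyms lacked the patterns, such as ATSPS4F and AT1G44830, whose roles are given below. The 0 therefore does not show that the 36 lack these roles. That 0 is in part fixed by the rule, which left out by name 4 bright genes of the list of photosystems and antenna, 1 of the Calvin cycle and 1 of tetrapyrrole and carotenoid synthesis. The 36 lay on all 5 chromosomes, 8, 8, 10 and 9 on chromosomes 1 to 4 and 1 of them, AT5G06790, on chromosome 5. Of the 692 named probes, 173, 124, 130, 120 and 143 lie on chromosomes 1 to 5. The bright named probes were not counted by chromosome, so nothing is read from these counts. The closest neighbours were AT4G31470 and AT4G31530, with 5 protein-coding genes between them in the annotation, and their deviations were uncorrelated (r = 0.01).

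Plastid proteins were represented by 4 genes, of which 2 were higher and 2 lower in gun1, with a median difference of 0.02. CUTA, a homologue of a bacterial protein of metal tolerance, ran from 4.40 to 9.04 with a median of 6.08 in WT and from 3.55 to 8.17 with a median of 4.89 in gun1. The ranges overlapped over most of their length, and the difference was -0.24 (SE 0.21). In both genotypes the numbers 1 and 2 of CUTA were the highest, at 9.04 and 7.53 in WT and 8.17 and 7.94 in gun1.

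FZL ran from 1.79 to 3.48 with a median of 2.34 in WT and from 1.79 to 3.88 with a median of 2.87 in gun1, with a difference of 0.19 (SE 0.19). AT3G47650, a chaperone of Rubisco assembly, ran from 0.634 to 1.26 over the WT samples and 0.597 to 1.37 over the gun1 samples, with a difference of 0.15 (SE 0.21). AT1G54500, a rubredoxin-like iron protein, ran from 1.12 to 1.49 over the WT samples and 0.795 to 1.5 over the gun1 samples, with a difference of -0.11 (SE 0.14). With consecutive numbers joined, which counts both samples of a pair as separate, FZL, CUTA and AT3G47650 were called, as were 23.2% of bright probes. The limma adjusted p was 0.00245 for FZL, 0.00383 for CUTA and 0.0170 for AT3G47650, whereas AT1G54500 had 0.491. Over the 8 separate numbers the limma adjusted p was 0.137 for FZL, 0.138 for CUTA and 0.274 for AT3G47650. None of these genes was called with consecutive numbers averaged.

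Enzymes were represented by 4 genes, 3 higher and 1 lower in gun1, with a median difference of 0.22. AT4G31530, of the family of NAD(P)-binding Rossmann folds, had the brightest probe of the set and ran from 14.9 to 28.3 with a median of 25.4 in WT and from 23.8 to 33.5 with a median of 27.7 in gun1. After normalisation its gun1 sample was the higher in 8 of 8 numbers, by 0.28 (SE 0.16). As deposited, gun1 was the lower in the numbers 1 and 2, at 26.4 and 26.6 against 27.2 and 28.8, and the higher in the rest. The 2 lowest normalised samples of all were WT 7 and WT 8, at 15.5 and 14.9. ATSPS4F, a sucrose phosphate synthase, which makes the precursor of sucrose, ran from 0.696 to 1.01 over the WT samples and 0.746 to 1.3 over the gun1 samples, with a difference of 0.16 (SE 0.15). CYN, the cyanase that breaks down cyanate, had the smallest range of the 36, with the highest sample 1.47-fold above the lowest, and a difference of -0.04 (SE 0.12). AT4G29890, related to choline monooxygenase, ran from 0.546 to 1.1 over the WT samples and 0.873 to 1.28 over the gun1 samples, with a difference of 0.34 (SE 0.16).

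Mitochondrial and organelle RNA proteins were the steadiest group, with 3 genes whose highest sample was at most 1.70-fold above the lowest. AT4G32060, a calcium-binding regulator of mitochondrial calcium uptake, ran from 1.70 to 2.77 over the WT samples and 2.17 to 2.78 over the gun1 samples, with a difference of 0.22 (SE 0.13). AT4G39690, a subunit of the complex that organises mitochondrial cristae, ran from 1.15 to 1.45 over the WT samples and 0.984 to 1.53 over the gun1 samples, with a difference of -0.12 (SE 0.12). AT3G13150, a pentatricopeptide repeat protein, ran from 0.840 to 1.25 over the WT samples and 0.751 to 1.27 over the gun1 samples, with a difference of 0.05 (SE 0.14). In these 3 genes the deviations of same-numbered WT and gun1 samples were nearly unrelated, with r between 0.07 and 0.14 over the 8 numbers, and 0 of the 3 were called with numbers joined (adjusted p = 0.252 for AT3G13150, 0.343 for AT4G32060 and 0.572 for AT4G39690).

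Stress and defence genes numbered 5, with 2 higher and 3 lower in gun1 and a median difference of -0.04. XERICO, a RING protein that raises abscisic acid levels, was steady, from 2.47 to 2.87 over the WT samples and 2.0 to 2.97 over the gun1 samples, with a difference of -0.12 (SE 0.12). AT4G31470, of the family of secreted PR-1-like proteins, ran from 1.43 to 1.90 with a median of 1.60 in WT and from 1.81 to 2.35 with a median of 2.04 in gun1. After normalisation the gun1 sample was the higher in 8 of 8 numbers, by 0.32 (SE 0.11), and the ranges overlapped between 1.81 and 1.90. As deposited, gun1 was the lower in the number 1, at 1.85 against 2.04, and the higher in the rest. ATSIK, a protein kinase named for its induction by osmotic stress, ran from 0.707 to 1.18 over the WT samples and 0.653 to 1.14 over the gun1 samples, with a difference of -0.04 (SE 0.16). AT4G05070 differed by 0.06 (SE 0.19), and its WT and gun1 deviations ran together over the 8 numbers (r = 0.963).

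Regulators of transcription, RNA and protein numbered 8, with 4 higher and 4 lower in gun1 and a median difference of 0.03. CCL, whose transcript is known for clock-controlled decay, ran from 4.47 to 5.79 with a median of 4.97 in WT and from 3.44 to 6.47 with a median of 5.69 in gun1, with a difference of 0.09 (SE 0.14). The gene listed as chr31, a chromatin remodeller of RNA-directed DNA methylation, ran from 0.676 to 1.1 over the WT samples and 0.751 to 0.966 over the gun1 samples, with a difference of -0.03 (SE 0.13) and the lowest F of the 36. AT2G37510, an RNA-binding protein with an RNA recognition motif, ran from 1.79 to 2.82 over the WT samples and 1.29 to 2.27 over the gun1 samples, with a difference of -0.27 (SE 0.15).

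AT2G21530, which carries a forkhead-associated domain that binds phosphorylated proteins, differed in its spread. It ran from 0.882 to 0.984 in WT, the narrowest range of that genotype, and from 0.551 to 0.928 in gun1, with SDs of 0.06 and 0.28 on the log2 scale. In gun1 the numbers 3 and 4, at 0.928 and 0.925, fell within the WT range, and the other 6 lay below it. The difference was -0.37 (SE 0.13), lower in 7 of 8 numbers.

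AT1G21660, a J-domain protein of the chaperone family, ran from 0.582 to 1.64 over the WT samples and 0.980 to 1.93 over the gun1 samples, with a difference of 0.37 (SE 0.20). Of the transcription factor genes, AT1G44830, of the AP2/ERF family, ran from 0.628 to 1.81 over the WT samples and 0.911 to 1.68 over the gun1 samples (difference 0.18, SE 0.24), and the basic helix-loop-helix gene AT4G00870 from 1.02 to 1.54 and from 1.04 to 2.1 (difference 0.28, SE 0.16). The numbers 1 and 2 were high for both, at 1.80 and 1.81 in WT for AT1G44830 and at 2.1 and 2.06 in gun1 for AT4G00870. AT4G39760 differed by -0.14 (SE 0.16).

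The other 12 genes are known here by locus only: AT2G40980, AT1G50880, AT3G57120, AT1G03810, AT3G26580, AT1G01730, AT3G06870, AT2G44760, AT5G06790, AT3G51500, AT2G30100 and AT2G47360. In gun1, 4 were higher and 8 lower, with a median difference of -0.05. AT3G51500 ran from 0.662 to 1.45 over the WT samples and 0.371 to 1.45 over the gun1 samples, with a difference of -0.36 (SE 0.26). After normalisation it was lower in gun1 in 7 of 8 numbers and equal in the number 8. As deposited, it was lower in gun1 in the numbers 1 to 5 only. In the numbers 6, 7 and 8 it was then 0.745, 1.03 and 1.55 in gun1 against 0.709, 1.01 and 1.47 in WT. The numbers 3 and 4 were the lowest in both genotypes, at 0.662 and 0.714 in WT and 0.425 and 0.371 in gun1, and the number 8 was the highest, at 1.45 in each. AT1G01730 was high in the numbers 5 and 6, at 1.54 and 1.60 in WT and 1.64 and 1.69 in gun1, and differed by -0.30 (SE 0.24). The smallest differences of the 36 were those of AT3G57120 (SE 0.19), AT1G03810 (SE 0.13) and chr31, at -0.03 each. Among all 36, the highest sample was at most 2-fold above the lowest for 17 genes and over 3-fold above it for 6.

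Spread within a genotype was of the size seen for bright probes. The median SD on the log2 scale was 0.29, against 0.25 for the 426 bright probes and 0.54 for all probes. It was 0.27 in WT and 0.30 in gun1, against 0.23 and 0.26 for bright probes. WT was the more variable genotype for 12 of the 36 genes, 169 of the 426 bright probes and 1543 of all 3419 probes. The 24 bright named probes that differed by 0.4 or more had a median SD of 0.25, and 0 of the 24 were called among numbers, 5 at an unadjusted p under 0.05, with 6 called when consecutive numbers were joined. Whether that differs from the 36 genes was not tested.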

How the data were processed

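The deposited table gives linear intensity, between 0 and 100, for 3439 probes in 16 samples. How the authors made them is not given in the sources used here. Columns were quantile normalised (limma 3.58.1, R 4.3.3). A floor of 0.0313, the 5th percentile of positive values, replaced zeros and anything lower before values were converted to log2. After 20 constant probes were left out, 3419 were fitted with limma's lmFit and eBayes, with genotype for gun1 minus WT and with genotype plus the 8 numbers for the F test among numbers. P-values were adjusted over all tested probes by the Benjamini-Hochberg method, and a probe under 0.05 is referred to as called. Levels are arithmetic means or single values of normalised intensity, and differences are of mean log2 values. Array number limits the precision.

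The platform's annotation lists 1 gene for 692 probes, several for 870 and none for 1877. Symbols came from RefSeq's table of TAIR10.1, which held 690 of the 692. The genes and lists were chosen with earlier results of these data known. Named are the 8 brightest, those nearest the limits, the extremes of difference and of F, and the others by role, picked after their values were seen. The sequence features planned were not computed.

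The labels number the samples but do not say that the numbers pair them. Every same-numbered pair of WT and gun1 samples correlated above 0.1 in its deviations (0.143 to 0.421, mean 0.239), so the numbers were taken to pair the samples. Both fits were tested on simulated data, and values within 1e-09 on the log2 scale were counted as equal. Alternatives covered scaling, floor, variance model, dim probes, replicate block, consecutive numbers and left-out samples. Figures were drawn with matplotlib 3.10.9.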

Additional observations from a re-analysis of the deposited data

Results flagged for a closer look

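Samples far from the other 7 of their genotype were searched for on the log2 scale. Of 72 groups of 8 samples, 3 (4.17%) stood out by a gap over 0.526 of the group's range. Chance gives about 1 in 20 for independent samples, and consecutive numbers here often lay close together. The values quoted next are normalised intensities, not log2. CCL was low in gun1 replicate 5, at 3.44 against a median of 5.79 in the others. AT3G57120 was high in WT replicate 3, at 2.64 against 1.3. AT1G21660 was low in WT replicate 3, at 0.582 against 1.13. AT2G40980 was not among them, since its high samples come as a pair in each genotype. The cause was not tested for these values.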

How the results depend on the processing

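The count of genes under the difference limit, 36, fell to 3 with a common median and lay between 34 and 36 when each sample was left out. The calls of all probes for gun1 minus WT, 1088, became 592 with consecutive numbers averaged, 1293 with the replicate block and 996 to 1062 with a sample left out; 52.1% of calls were higher in gun1, 85.5% unscaled and 34.2% with a common median. With the replicate block, 2 of the 36 genes were called, as without it. The count was 0 with consecutive numbers averaged or as a random block (733 of all probes). It was 30 with a common median (1551 of 3422 probes), and 0 to 2 with a sample left out. The 65 probes called among numbers became 43 with the floor at the 1st percentile, 118 at the 20th, 200 with an intensity trend, 392 with numbers joined, 17 with them averaged, 2 without the numbers 7 and 8, and 37 to 61 with 1 number left out. Of the 36 genes, 2 were called there, both of which passed the level limit through the numbers 7 and 8, 7 with the floor at the 20th percentile, 13 with the trend, 17 with numbers joined, 1 with them averaged, 0 without the numbers 7 and 8 (5 at an unadjusted p under 0.05), 0 of the 33 at the level limit also in the WT numbers 1 to 6 (9 at an unadjusted p under 0.05) and 1 or 2 with 1 number left out. For the 5 at an unadjusted limma p under 0.05 no share of all probes was computed, so nothing is read from that count. AT2G40980 was called in every setting except the one without the numbers 7 and 8. Causes of these changes were not tested, and some settings also had fewer samples. Signal over background could not be judged, since no background value was given here.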
